A study of Rattus norvegicus with 9 samples.

Results

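The 9 genes described here encode proteins of the intrinsic apoptosis pathway and of the stress responses that feed into it in neurons. They were taken by gene symbol from the deposited expression table, which lists 20413 genes. The 3 BH3-only genes were Bbc3, Bcl2l11 and Hrk, the pore former was Bax, and the anti-apoptotic guardians were Bcl2 and Bcl2l1. The stress response genes were Ddit3, Trib3 and Gadd45a. Each symbol matched 1 row, and all 9 genes were among the 17187 genes tested.

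RNA-Seq was performed on dorsal root ganglia (DRGs) from the ipsilateral side, lumbar segments 4 to 6, of male Sprague Dawley rats aged 8 to 10 weeks. CPIP (chronic post-ischemia pain) rats had a tight ring around the ankle for 3 h, which stopped the blood flow to the hind paw until the ring was cut. Sham rats, labelled Con, were anesthetized in the same way and wore a ring already cut open, and CPIP+EA rats were CPIP rats given electroacupuncture at 100 Hz for 30 min a day on 10 days. Ganglia of all 3 groups were taken on day 10, with 3 libraries per group, and the methods name 3 rats per group. The samples analysed here include no group given needles without current, so the current, the needling and the handling of CPIP+EA rats cannot be told apart.

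In the intrinsic pathway, BH3-only proteins sense damage or loss of trophic support and bind the guardians BCL2 and BCL-XL (encoded by Bcl2l1). This frees or activates BAX, which opens the outer mitochondrial membrane, releases cytochrome c and leads to caspase activation. In sensory neurons the JNK kinases and c-Jun connect axon damage or growth factor withdrawal to BH3-only genes such as Hrk and Bbc3, and the integrated stress response acts through ATF4 on Ddit3 and Trib3. Transcripts of these genes can be high in neurons that survive, since BAX and the BH3-only proteins are also regulated after translation.

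The values are FPKM, that is, fragments scaled by transcript length and by the depth of the library. Differences were tested with limma on log2(FPKM + 0.5), and a gene passed the threshold at a Benjamini-Hochberg adjusted p under 0.01 together with a change of 1.5-fold or more in either direction. Log2 fold changes are given on this scale, where a change at low FPKM appears smaller than it is. The FPKM of a library summed to between 445647 and 482940. Sensory neuron markers were present in every library, with 14 genes summing to between 10596 and 13388 FPKM. Of these 14, 11 had log2 fold changes below 0 in both CPIP and CPIP+EA against Sham, with medians of -0.10 and -0.13 and 0 past the threshold. CPIP did not overlap Sham for 5 lower and 2 higher, against 7.9% and 7.98% of all genes. Rbfox3 (-0.34) and Snap25 (-0.24) were lower and Tubb3 (0.41) higher at an unadjusted limma p under 0.05. In CPIP+EA against Sham, Rbfox3 (-0.55) and Scn10a (-0.59) were lower and Tubb3 (0.46) and Prph (0.36) higher at that p. The 6 Schwann cell markers ranged from 4834 to 12013 FPKM and overlapped between the groups. The 6 satellite glia markers summed to 3614 to 3740 FPKM in Sham and to 3776 to 4198 FPKM in the other 6 libraries, most of it Apoe (3420 to 4006 FPKM). Kcnj10 was lower in every CPIP library than in every Sham library (log2 fold change -0.24), and the median over the 6 genes was 0.02 in CPIP and -0.05 in CPIP+EA against Sham. The 7 macrophage markers summed to 46.4 to 79.0 FPKM with overlap. Fibroblast markers were lower in CPIP+EA than in Sham for 6 of 6 genes, 5 of them at an unadjusted limma p under 0.05 and 0 past the threshold, with a median log2 fold change of -0.60. Their sums overlapped, at 978 to 1311 FPKM in Sham, 836 to 1108 FPKM in CPIP and 555 to 1109 FPKM in CPIP+EA. CPIP replicate 2 had the highest sum of muscle markers (139 FPKM, against 7.66 to 42.5 elsewhere). The part of these cells in the results was not tested. CPIP+EA replicate 3 had the highest sums of the neutrophil and marrow markers (643 FPKM, against 35.7 to 271 in the other libraries) and of the erythroid markers (2408 FPKM, against 263 to 1536).

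Promoters are shown for the 3 genes with the largest fold changes between CPIP and Sham and, beside them, for Ddit3, a stress response gene that did not pass the threshold. They are the 250 bases before the start of each gene in RefSeq on the rat assembly GRCr8, written 5′ to 3′ on the strand of the gene. RefSeq promoters were matched for 7 of the 9 genes. Capitals mark matches, on either strand, to AP-1 (TGANTCA), CRE (TGACGTCA), a C/EBP-ATF site (TGATGNAA), the CCAAT box (CCAAT), the GC box (GGGCGG) and the TATA box (TATAAA).
Gadd45a, chr4:97486800-97487049, minus strand: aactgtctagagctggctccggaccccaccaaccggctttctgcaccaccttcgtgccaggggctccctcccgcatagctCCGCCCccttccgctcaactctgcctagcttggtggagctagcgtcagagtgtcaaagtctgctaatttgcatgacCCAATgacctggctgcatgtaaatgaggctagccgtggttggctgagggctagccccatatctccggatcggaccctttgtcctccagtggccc
Hrk, chr12:44070562-44070811, minus strand: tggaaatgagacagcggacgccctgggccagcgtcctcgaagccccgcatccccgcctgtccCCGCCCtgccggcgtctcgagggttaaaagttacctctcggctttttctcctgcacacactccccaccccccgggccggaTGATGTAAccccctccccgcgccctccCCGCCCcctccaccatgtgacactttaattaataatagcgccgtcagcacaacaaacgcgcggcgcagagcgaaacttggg
Trib3, chr3:161275534-161275783, minus strand: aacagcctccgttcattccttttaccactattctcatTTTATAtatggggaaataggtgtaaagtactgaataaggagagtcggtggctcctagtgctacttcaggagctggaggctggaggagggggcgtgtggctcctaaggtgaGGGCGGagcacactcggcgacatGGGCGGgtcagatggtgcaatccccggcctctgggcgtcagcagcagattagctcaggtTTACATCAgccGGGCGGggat
Ddit3, chr7:65001445-65001694, plus strand: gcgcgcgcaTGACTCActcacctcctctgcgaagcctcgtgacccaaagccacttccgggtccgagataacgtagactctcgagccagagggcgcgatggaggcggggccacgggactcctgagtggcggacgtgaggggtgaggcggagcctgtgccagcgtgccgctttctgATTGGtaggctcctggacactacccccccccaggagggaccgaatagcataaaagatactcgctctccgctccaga

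Hrk and Trib3 each held 1 C/EBP-ATF match, a sequence found in 3.4% of 33469 promoters of the same length. The match was not particular to them: Bcl2 held it too, as did Bcl2l1, where promoters that overlap share a match, so 4 of the 7 genes with a promoter did, among them both guardians. Ddit3 held 1 AP-1 match, found in 6.34% of promoters, and none of these 4 promoters held the CRE letters, found in 1.59%. Gadd45a held 1 CCAAT box and 1 GC box, which occurred in 34.0% and 30.5% of promoters. These are matches of letters in a window, and binding was not measured.

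Gadd45a was the gene of the group with the strongest change in CPIP, Hrk, at a lower level of expression, was past the threshold against Sham in CPIP+EA, a call lost in 14 of 20 alternatives, and short of it in CPIP, and the guardians Bcl2 and Bcl2l1 did not pass in any comparison. Between CPIP and Sham, 1 of the 9 genes passed the threshold, where 0.355% of all genes tested did. At an unadjusted p under 0.05, 3 of the 9 were higher in CPIP and 0 lower, against 4.61% and 4.06% of all genes. For 3 of the 9, Gadd45a, Hrk and Trib3, every CPIP library was above every Sham library, and for 0 every one was below, against 7.98% and 7.9% of all genes. The median log2 fold change was 0.12 over the 9 genes and -0.01 over all genes tested. In bulk ganglia, a change in the number of cells of a type and a change in RNA per cell cannot be told apart.

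**Figure D1:**
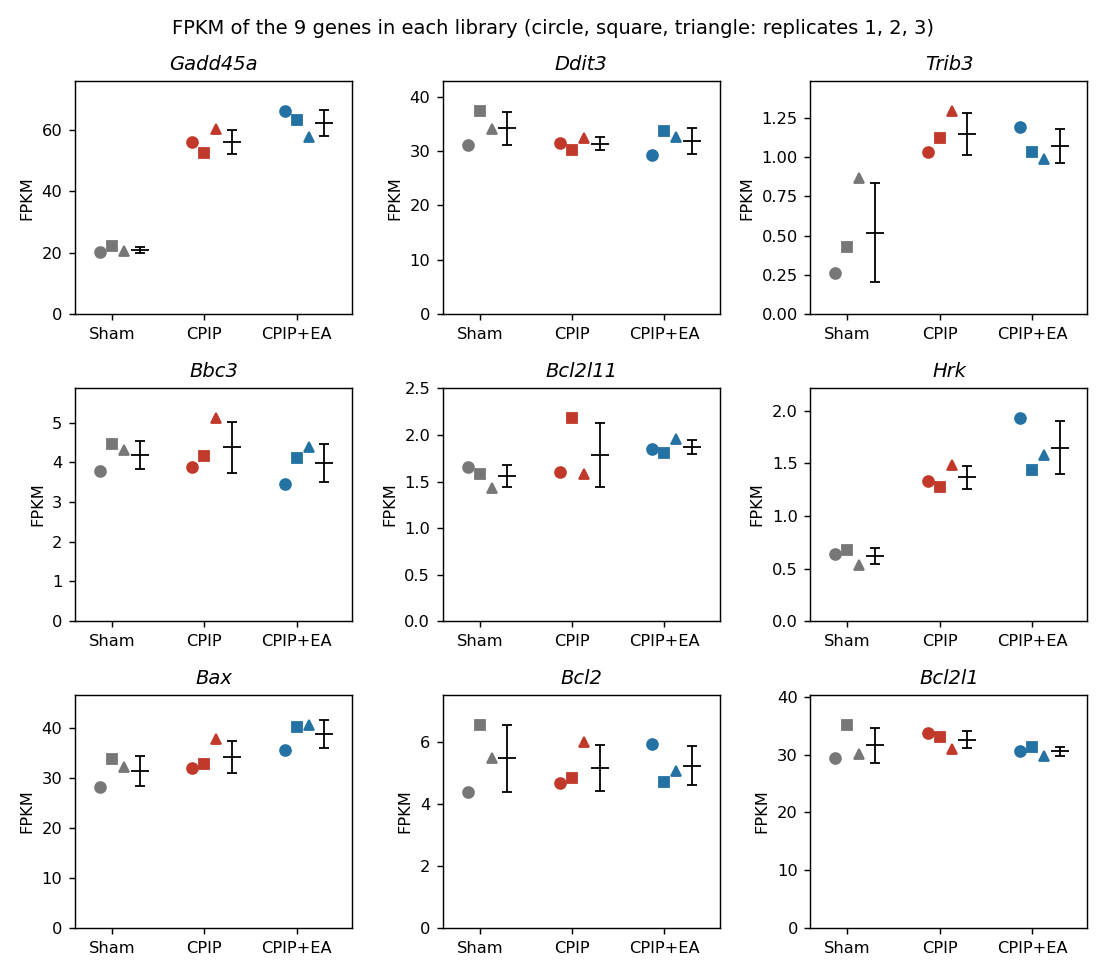
FPKM of the 9 genes (vertical axes, linear and starting at 0) in each library of Sham, CPIP and CPIP+EA; circles, squares and triangles are replicates 1, 2 and 3, and the black bar is the group mean with its SD (n = 3). Gadd45a lay between 20.10 and 22.14 in Sham and between 52.29 and 65.94 in the other 6 libraries.

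Gadd45a (gene ID 25112), a growth arrest gene whose product activates stress kinases and takes part in DNA demethylation and repair, had 20.10, 22.14 and 20.56 FPKM in Sham replicates 1 to 3. In CPIP it had 55.89, 52.29 and 60.14 FPKM, and in CPIP+EA 65.94, 63.15 and 57.69 FPKM. All 6 CPIP and CPIP+EA libraries were above the 3 Sham libraries, and CPIP overlapped CPIP+EA. The mean rose from 20.9 ± 1.07 (SD, n = 3) in Sham to 56.1 ± 3.93 (n = 3) in CPIP, a ratio of 2.68, and the log2 fold change was 1.40 (SE 0.074, limma adjusted p = 2.66e-05). By p-value Gadd45a ranked 9 of 17187 genes in this comparison. In CPIP+EA against Sham, Gadd45a rose by 1.55 on the log2 scale (limma adjusted p = 1.09e-05), with a mean of 62.3 ± 4.20 FPKM (n = 3) in CPIP+EA. The difference of CPIP+EA from CPIP was 0.15, with a 95% interval from -0.02 to 0.32 (limma adjusted p = 0.996). The 12 injured neuron markers, which include Atf3, summed to between 154 and 162 FPKM in Sham. Their sum was 780 to 915 FPKM in CPIP, and 855 to 971 FPKM in CPIP+EA. All 12 passed the threshold between CPIP and Sham, where 0.355% of all genes tested did. The list was chosen with earlier results of these data known, so this count is no independent evidence. Sprr1a was at 0 in 2 Sham libraries, and the part of injured neurons in the Gadd45a result was not tested.

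Trib3 (gene ID 246273), a pseudokinase induced by ATF4 and CHOP that restrains AKT, was the lowest of the 9 genes, with a mean of 0.912 FPKM over the 9 libraries. Its values were 0.26, 0.43 and 0.87 FPKM in Sham, 1.03, 1.12 and 1.29 FPKM in CPIP, and 1.19, 1.03 and 0.99 FPKM in CPIP+EA. Every CPIP and CPIP+EA library lay above every Sham library, but Sham replicate 3 was close to them. CPIP against Sham gave a log2 fold change of 0.73 (95% interval 0.28 to 1.18, limma adjusted p = 0.220), and with 1 library left out it ran from 0.54 (without Sham replicate 1) to 0.97 (without Sham replicate 3). The adjusted p then lay between 0.0400 (without Sham replicate 3) and 0.547 (without Sham replicate 2), short of the threshold throughout. With a pseudocount of 0.1 the log2 fold change of Trib3 was 1.12. Trib3 in CPIP+EA against CPIP had a log2 fold change of -0.07 (95% interval -0.52 to 0.38).

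Ddit3 (gene ID 29467), which encodes CHOP, the transcription factor of the late endoplasmic reticulum stress response, was at 31.18, 37.26 and 33.96 FPKM in Sham and 31.45, 30.20 and 32.47 FPKM in CPIP. CPIP+EA had 29.21, 33.72 and 32.50 FPKM. The 3 groups overlapped. The log2 fold change of Ddit3 between CPIP and Sham was -0.12 (95% interval -0.30 to 0.06, limma adjusted p = 0.809), so a rise of 1.5-fold lay outside the interval.

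Among the BH3-only genes, Hrk (gene ID 117271), a sensitizer expressed mainly in neurons and known for its induction by JNK after loss of growth factor, had 0.64, 0.68 and 0.53 FPKM in Sham. It had 1.33, 1.28 and 1.49 FPKM in CPIP and 1.93, 1.44 and 1.58 FPKM in CPIP+EA. The Sham libraries were the 3 lowest, and CPIP and CPIP+EA overlapped. The ratio of means between CPIP and Sham was 2.22, from 0.617 ± 0.0777 (SD, n = 3) to 1.37 ± 0.110 FPKM (n = 3). The log2 fold change of 0.74 (SE 0.12, limma adjusted p = 0.0320) did not reach the adjusted p of 0.01. It was under 0.05, but not on leaving out any 1 Sham or CPIP library, where the adjusted p ran up to 0.151 (without CPIP replicate 3). Hrk in CPIP+EA against Sham rose by 0.94 (SE 0.12, limma adjusted p = 0.00694), a call that was lost in 14 of 20 alternatives, where the adjusted p ran up to 0.0359. It was lost on leaving out any 1 of the 9 libraries. The difference in Hrk of CPIP+EA from CPIP was 0.20 (95% interval -0.08 to 0.48).

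Bbc3 (gene ID 317673), which encodes PUMA, a BH3-only protein induced by p53 and by JNK, had 3.79, 4.45 and 4.31 FPKM in Sham, 3.88, 4.16 and 5.11 FPKM in CPIP, and 3.45, 4.11 and 4.38 FPKM in CPIP+EA. The 3 groups overlapped, and CPIP against Sham gave a log2 fold change of 0.05 (95% interval -0.23 to 0.34, limma adjusted p = 0.970). Bcl2l11 (gene ID 64547), which encodes BIM, an activator of BAX, had 1.66, 1.58 and 1.43 FPKM in Sham, 1.60, 2.18 and 1.58 FPKM in CPIP, and 1.85, 1.81 and 1.96 FPKM in CPIP+EA. CPIP replicate 2 held the highest Bcl2l11 value, and CPIP overlapped Sham while CPIP+EA lay above it. The log2 fold change of Bcl2l11 was 0.14 (95% interval -0.14 to 0.43) between CPIP and Sham and 0.21 (95% interval -0.07 to 0.49, limma adjusted p = 0.555) between CPIP+EA and Sham.

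Bax (gene ID 24887), the effector that forms the mitochondrial pore, had 28.12, 33.81 and 32.21 FPKM in Sham, 31.85, 32.78 and 37.70 FPKM in CPIP, and 35.53, 40.13 and 40.52 FPKM in CPIP+EA. CPIP overlapped both other groups, while each CPIP+EA library was above each Sham library. The log2 fold change of Bax was 0.12 (95% interval -0.09 to 0.33) between CPIP and Sham, 0.18 (-0.03 to 0.39) between CPIP+EA and CPIP, and 0.30 (0.09 to 0.51, limma adjusted p = 0.218) between CPIP+EA and Sham.

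The guardian Bcl2l1 (gene ID 24888), the main survival factor of mature neurons among these genes, had 29.48, 35.14 and 30.21 FPKM in Sham, 33.73, 33.08 and 30.99 FPKM in CPIP, and 30.68, 31.32 and 29.77 FPKM in CPIP+EA. Bcl2 (gene ID 24224) had 4.37, 6.53 and 5.47 FPKM in Sham, 4.65, 4.81 and 5.99 FPKM in CPIP, and 5.92, 4.70 and 5.06 FPKM in CPIP+EA. Groups overlapped for both guardians. Between CPIP and Sham the log2 fold change was 0.05 (95% interval -0.12 to 0.21) for Bcl2l1 and -0.07 (95% interval -0.42 to 0.28) for Bcl2. On the FPKM scale, which is per length, mean Bcl2l1 (31.6) was near Bax (34.7) and Ddit3 (32.4), with overlapping libraries, and mean Bcl2 (5.28) overlapped Bbc3 (4.18).

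**Figure D2:**
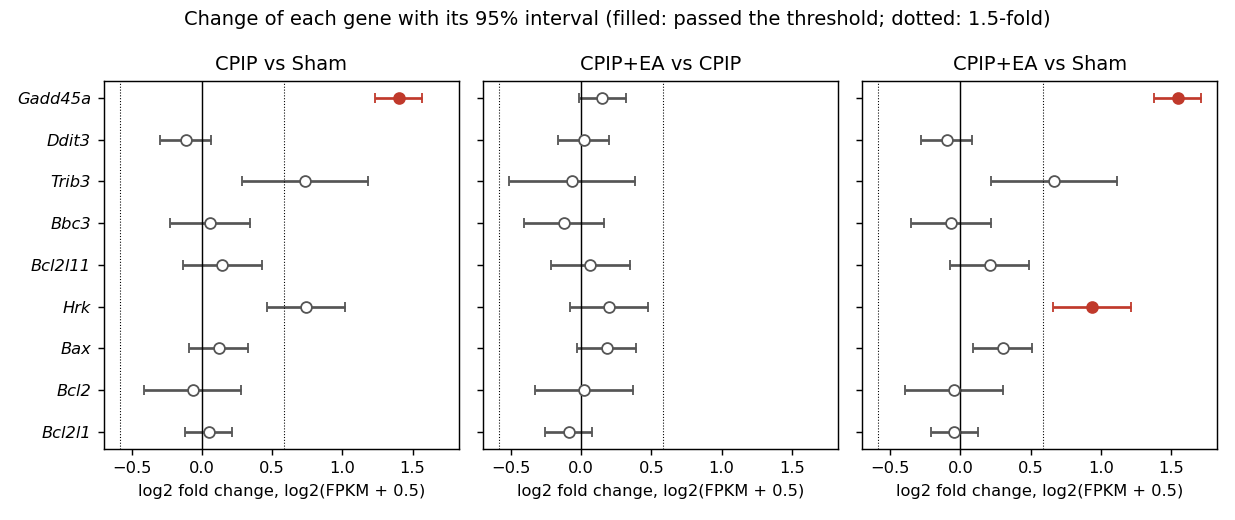
Log2 fold change of the 9 genes on log2(FPKM + 0.5) (horizontal axis) in the 3 comparisons, with 95% intervals from limma; filled red points passed the threshold and dotted lines mark 1.5-fold. Gadd45a passed in both comparisons with Sham and Hrk in CPIP+EA against Sham, and no gene passed between CPIP+EA and CPIP.

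Electroacupuncture was compared with untreated CPIP to see which of these transcripts it moved. Between CPIP+EA and CPIP, 0 of the 9 genes passed the threshold, where 0% of all genes tested did with limma. The paper, by its own method, reported genes past the same limits in this comparison and measured some of them by qPCR. With 3 libraries per group, 0 genes passing here does not show that no transcript changed. At an unadjusted p under 0.05, 0 of the 9 were higher and 0 lower, against 382 genes (2.22%) and 356 genes (2.07%) of all tested. The groups did not overlap for 0 of the 9, against 4.84% of all genes higher and 3.4% lower. The log2 fold changes of the 9 genes lay between -0.12 (Bbc3) and 0.20 (Hrk), with a median of 0.02 beside 0.01 over all genes. The 95% intervals of these differences were -0.41 to 0.16 for Bbc3, -0.22 to 0.35 for Bcl2l11, -0.33 to 0.37 for Bcl2, -0.26 to 0.08 for Bcl2l1 and -0.16 to 0.20 for Ddit3, and those of the other 4 genes are given above.

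Between CPIP+EA and Sham, 2 of the 9 genes (Gadd45a and Hrk) passed the threshold, where 0.483% of all genes tested did. The Hrk call was lost in 14 of 20 alternatives, among them each fit with 1 of the 9 libraries left out, and 1 gene then passed. At an unadjusted p under 0.05, 4 of the 9 were higher in CPIP+EA and 0 lower, against 6.59% and 5.63% of all genes. Groups did not overlap for 5 of the 9 genes, Gadd45a, Hrk, Trib3, Bax and Bcl2l11, all higher, against 8.87% of all genes higher and 7.32% lower. This comparison shares its Sham libraries with the first comparison and its CPIP+EA libraries with the second, so it is no separate evidence.

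Within a library, a ratio of 2 genes does not depend on the scaling of that library. The ratio of Bax to Bcl2l1 was 0.954, 0.962 and 1.07 in Sham and 0.944, 0.991 and 1.22 in CPIP. The CPIP+EA libraries had ratios of 1.16, 1.28 and 1.36. CPIP+EA lay above Sham and overlapped CPIP. The ratio of Bax to Bcl2 was between 5.18 and 6.43 in Sham and ran from 6.29 to 6.85 in CPIP. CPIP+EA ran from 6.00 to 8.54, and all groups overlapped. The ratio of Bcl2l1 to Bcl2 overlapped in all groups as well, between 5.17 and 7.25. These ratios are a description and were not tested.

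**Figure D3:**
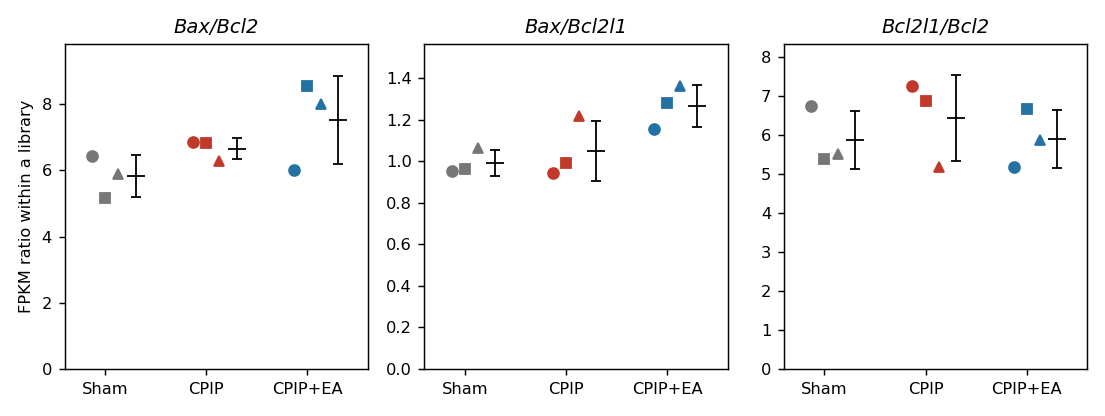
Ratio of FPKM within each library for Bax to Bcl2, Bax to Bcl2l1 and Bcl2l1 to Bcl2 (vertical axes, linear and starting at 0); symbols are replicates 1, 2 and 3, and black bars are the group mean and SD (n = 3). For Bax to Bcl2l1 the CPIP+EA libraries, from 1.16 to 1.36, lay above the Sham libraries.

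Other genes of these pathways were read from lists. Of 17 other BCL2 family genes tested, 0 passed between CPIP and Sham, with 3 at an unadjusted limma p under 0.05, all higher, and a median log2 fold change of 0.08. Bok, a BAX relative, had 23.38, 22.32 and 27.84 FPKM in Sham and 32.00, 32.56 and 38.05 FPKM in CPIP (log2 fold change 0.47, limma adjusted p = 0.195). Bcl2l10 was rare, between 0.06 and 0.29 FPKM, with all 9 values within 0.006 FPKM of 1 to 5 times a step of 0.0585 FPKM, and it is not read further. Of 19 caspases and regulators tested, 0 passed, with 1 higher and 2 lower at an unadjusted p under 0.05. Diablo, which antagonizes inhibitors of apoptosis, had a log2 fold change of -0.21 (limma adjusted p = 0.323).

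Of 31 genes of the integrated stress response and unfolded protein response, 0 passed between CPIP and Sham, with 1 higher and 1 lower at an unadjusted limma p under 0.05 and a median of -0.01. The smallest p-values there were those of Trib2, a relative of Trib3 (log2 fold change -0.23, limma adjusted p = 0.344), and Ddit4, an mTORC1 inhibitor (0.68, limma adjusted p = 0.391). For Ddit4 the groups overlapped, with 51.02 FPKM in Sham replicate 2 and 47.95 FPKM in CPIP replicate 3, and the log2 fold change was 0.43 without Sham replicate 1. Of 11 heat shock and chaperone genes tested, 0 passed, with 1 higher and 1 lower at an unadjusted p under 0.05. Hspb1, a small heat shock protein of injured neurons, had 195 ± 12.8 FPKM in Sham and 315 ± 59.7 FPKM in CPIP (SD, n = 3 each, log2 fold change 0.68, limma adjusted p = 0.0657). Hsf1, the heat shock factor, had a log2 fold change of -0.15 (limma adjusted p = 0.393).

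Of 22 p53 pathway genes, 1 passed in CPIP against Sham and 2 in CPIP+EA against Sham. Cdkn1a, the cell cycle inhibitor p21, had 3.67, 3.63 and 3.95 FPKM in Sham, 8.69, 11.51 and 10.04 FPKM in CPIP, and 12.36, 9.22 and 8.93 FPKM in CPIP+EA. Sham lay below both other groups, and CPIP against Sham gave a log2 fold change of 1.31 (limma adjusted p = 0.00257). That call was lost in 6 of 20 alternatives (adjusted p up to 0.0204). Among them were the fits without any 1 of the Sham libraries, CPIP replicate 2 or CPIP replicate 3. CPIP+EA against Sham also gave 1.31 (limma adjusted p = 0.00201), a call lost in 5 of 20 alternatives (adjusted p up to 0.0162). Gadd45g, a relative of Gadd45a, had a log2 fold change of 0.82 between CPIP and Sham (limma adjusted p = 0.0249) and rose by 1.11 between CPIP+EA and Sham (limma adjusted p = 0.00357), the latter lost in 5 of 20 alternatives (adjusted p up to 0.0246), among them the fits without Sham replicate 1, CPIP replicate 2, CPIP+EA replicate 1 or CPIP+EA replicate 2. Without Sham replicate 2, Gadd45g passed between CPIP and Sham too (limma adjusted p = 0.00840). Gadd45b, another relative, had a log2 fold change of -0.03 between CPIP and Sham, and was named after its values were seen.

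Of 19 genes of the DLK, JNK and FOXO axis, 2 passed between CPIP and Sham, Atf3 and Jun, while the median over the 19 was -0.03. Atf3, a stress transcription factor of injured sensory neurons, rose from 4.77, 6.86 and 5.37 FPKM in Sham to 55.88, 50.51 and 61.58 FPKM in CPIP (log2 fold change 3.21, limma adjusted p = 1.19e-05). Jun, which encodes c-Jun, had 25.78, 24.00 and 19.81 FPKM in Sham and 42.42, 39.55 and 43.80 FPKM in CPIP. Its log2 fold change of 0.85 (limma adjusted p = 0.00694) was lost in 14 of 20 alternatives, where the adjusted p ran up to 0.0423, among them each fit with a Sham or CPIP library left out and those without CPIP+EA replicate 2 or 3. In CPIP+EA against CPIP, 0 genes of any of these 6 lists passed.

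**Figure D4:**
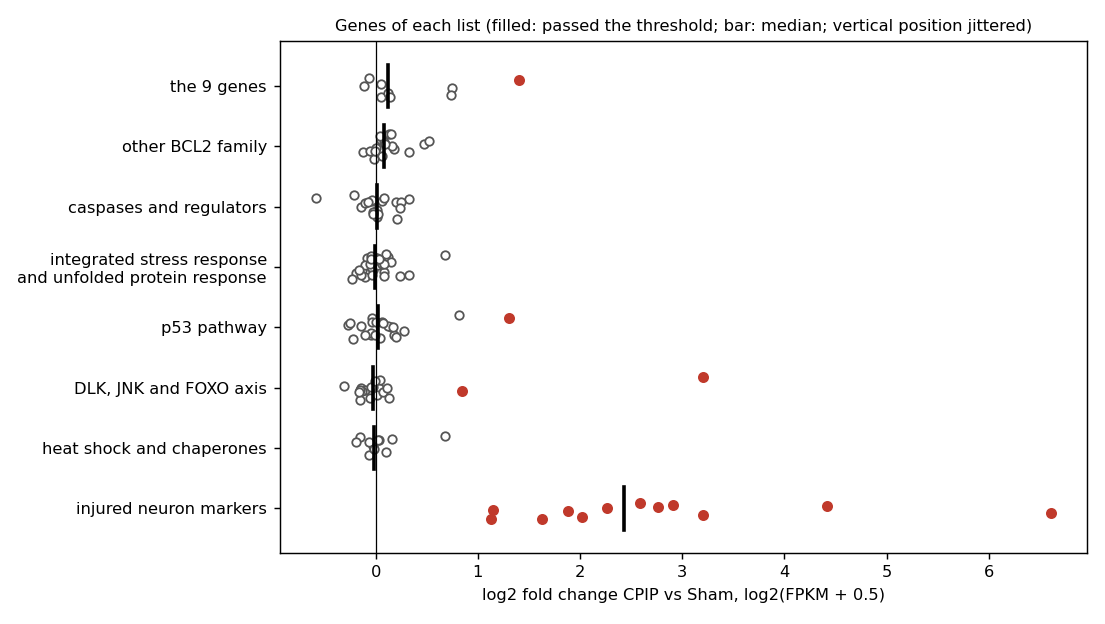
Log2 fold change between CPIP and Sham on log2(FPKM + 0.5) (horizontal axis) for each tested gene of the 9 genes, 6 pathway lists and the injured neuron markers (rows); filled red points passed the threshold, black bars are list medians, and vertical position within a row is jitter. The injured neuron markers had a median of 2.43, while the other 7 rows had medians between -0.03 and 0.12. All rows were chosen with earlier results of these data known.

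The genes whose pattern over the 9 libraries was most like that of Gadd45a, by Pearson r on log2(FPKM + 0.5), were Atf3 (0.999), Vip (0.997) and Gal (0.996). Vip and Gal encode neuropeptides of injured sensory neurons. For Hrk they were Csrp3 (0.988), Smad1 (0.983) and Pdlim1 (0.983). Because the Sham libraries stood apart for these genes, r was also computed over the 6 CPIP and CPIP+EA libraries, where it was 0.963, 0.955 and 0.866 for the genes like Gadd45a and 0.905, 0.790 and 0.810 for those like Hrk. An r of at least 0.9 over the 9 libraries was reached by 232 genes with Gadd45a and by 204 with Hrk. The named genes were picked by r over all 9 libraries, so r over the 6 among them is no separate check. All these r values are descriptions over libraries that share their groups.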

How the data were processed

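RNA-Seq libraries of L4-6 DRGs from 3 groups of 3 were analysed, grouped by the treatment given per the labels. The authors filtered reads with SOAPnuke and deposited FPKM per gene and library. Aligner, genome build and annotation are not given in the sources used here. Read counts were not used, so no test that needs them was run, and precision is set by having 3 libraries a group. The 9 columns of the authors' own comparisons (log2 ratios, P-values and Q-values) were not used.

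A pseudocount of 0.5 was added to FPKM before taking log2. Genes averaging 0.1 FPKM or more over the 9 libraries entered a single limma model (version 3.58.1, R 4.3.3) of the 9 libraries, with a mean per group, no covariate, and eBayes moderation along the mean-variance trend. P-values were two-sided and adjusted by the Benjamini-Hochberg method over all 17187 genes tested. This model was checked on simulated FPKM with known changes. Tables and figures were made with Python 3.11.15, pandas 2.3.3, numpy 2.4.6 and matplotlib 3.10.9.

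Beside the 9 genes, the text names each gene of a pathway list that passed in any comparison, the 2 genes of each list with the smallest p between CPIP and Sham, and the 3 genes most like each of the 2 members with the smallest p. The members and lists were chosen with earlier results of these data known. The motifs, the promoter window, the promoters shown, the step of Bcl2l10 and the alternatives for the ratios were chosen after values or sequences were seen. A gene that this rule names is not reported here. Casp6 was not tested and Hspa1b was not listed. The p-values set the difference of group means against the spread between libraries within groups, which limma pooled over groups and moderated over genes. Alternatives were other pseudocounts, filters, scalings, trends and thresholds, the replicate number as a block, only the 2 groups compared, and each library left out in turn.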

Additional observations from a re-analysis of the deposited data

How the results depend on the processing

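With 3 libraries per group and FPKM without counts, low genes such as Hrk and Trib3 have an unknown counting error. Gadd45a passed the threshold against Sham under all 20 alternatives in both groups. Of the 9 genes, 2 passed between CPIP and Sham at an adjusted p under 0.05, with or without the fold limit, the second being Hrk, whose adjusted p was above 0.05 without any 1 Sham or CPIP library (up to 0.151). Between CPIP+EA and Sham, 1 passed instead of 2 with a mean FPKM of at least 1, on the TPM scale, with quantile normalization, with the replicate block, with only the 2 groups compared, and with any 1 library left out. The cause was not tested.

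The count of all genes passing between CPIP and Sham was 61, and 26 with the replicate block, 102 at an adjusted p under 0.05, 122 without a fold limit, and 30 to 62 with 1 library left out. In CPIP+EA against CPIP it was 0, 1 with only the 2 groups compared, and 0 to 2 with 1 library left out. Between CPIP+EA and Sham it was 83, and 42 with the replicate block, 51 with only the 2 groups compared, 163 at an adjusted p under 0.05, 226 without a fold limit, and 35 to 82 with 1 library left out. The correlation of deviations from the group means ran from -0.24 to 0.30 (median 0.01) over 9 same-numbered pairs. It ran from -0.22 to 0.28 over 18 other pairs. The pairs share libraries and the ranges are wide, so these values cannot tell whether the replicate numbers pair the samples.

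Directions turned only for genes that did not pass in that comparison and lay near 0. On the TPM scale, the log2 fold change between CPIP+EA and CPIP was -0.00154 for Ddit3 and -0.013 for Cdkn1a. With 1 library left out, the log2 fold changes ran, between CPIP and Sham, for Bbc3 from -0.049 to 0.13, Bcl2 from -0.21 to 0.060 and Bcl2l1 from -0.00018 to 0.12. Without a change of sign they ran for Bax from 0.043 (without Sham replicate 1) to 0.17, Bcl2l11 from 0.025 (without CPIP replicate 2) to 0.21 and Ddit3 from -0.18 to -0.053 (without Sham replicate 2). Between CPIP+EA and CPIP they ran, without a change of sign, for Hrk from 0.11 (without CPIP+EA replicate 1) to 0.27 and, with the value nearest 0 without CPIP replicate 3, Bbc3 from -0.20 to -0.018, Bcl2l11 from 0.000093 to 0.18 and Trib3 from -0.12 to -0.0061, and with a change of sign for Bcl2 from -0.064 to 0.13, Ddit3 from -0.025 to 0.077, Bok from -0.027 to 0.19, Trib2 from -0.012 to 0.11, Cdkn1a from -0.14 to 0.10, Jun from -0.032 to 0.11 and Pdlim1 from -0.062 to 0.099. Against Sham, CPIP+EA values ran for Ddit3 from -0.16 to -0.035 (without Sham replicate 2) with no change of sign, and with one for Bbc3 from -0.13 to 0.021, Bcl2 from -0.18 to 0.081, Bcl2l1 from -0.090 to 0.035 and Ddit4 from -0.11 to 0.33.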
